A study of Homo sapiens with 24 samples.

Results

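The subject is the mRNAs of 9 RNA-binding adaptors and TOB/BTG proteins that bring the CCR4-NOT deadenylase to its targets. They were chosen by name from the deposited table of 19798 genes: PUM2 (Pumilio), ZFP36L1 and ZFP36L2 (TTP-like), RC3H1 and RC3H2 (Roquin), and TOB1, TOB2, BTG1 and BTG3 (TOB/BTG). All 9 passed the filter on low values, which left 10731 genes for testing. The measurement concerns the decay of the adaptors' own mRNAs and not the amount or activity of the proteins.

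Decay was followed by SLAM-seq in HEK293T cells, a transformed human embryonic kidney line. The sgCNOT3 cells, labelled CNOT3-knockout, carried lentiviral Cas9 with guides against CNOT3, a non-catalytic subunit of CCR4-NOT, and the sgNT cells carried the same vector with non-targeting guides. Both were selected in puromycin, and nothing in the sources describes single clones. Both were given 75 µM 4-thiouridine (4-SU) for 24 h in medium renewed every 3 h, which marks new RNA, and were then moved to 10 mM UTP without label. Cells were taken at 0, 1, 2, 4, 8 and 12 h of this chase, with 2 libraries per genotype and time, or 24 in all. A pair of guides was used per genotype, and the labels do not say which library received which. Whether the 2 libraries of a group came from different dishes of cells is not stated, so the library-to-library spread may be technical. The p-values at single chase times cover only that spread. Those of the slopes over the chase also take in each gene's departure from a straight line on the log scale. The value for a gene is its T-to-C conversion ratio, given here in percent, which is high when most of its RNA dates from the labelling period. It is an average over a culture, so a change in every cell and a larger change in a fraction of the cells cannot be told apart. The ratio falls as labelled RNA decays and also as unlabelled RNA is made. The paper reports reduced fitness of cells that lost CNOT3, and an effect of growth on these values was not tested.

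CCR4-NOT shortens poly(A) tails, which is usually the first step in mRNA decay. Some of its targets are selected by proteins that read a sequence in the 3′ UTR and bind the complex at the same time. Pumilio proteins read elements that begin with UGUA, TTP-like zinc finger proteins read AU-rich elements, and Roquin proteins read small stem-loops. TOB and BTG proteins have no sequence preference of their own. They bind the CAF1-type nuclease of the complex, and TOB proteins also bind poly(A)-binding protein. Several adaptor mRNAs carry the elements that adaptors read.

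The guides that define the sgCNOT3 genotype are shown first, with the 3 bases of the PAM in capitals. Both lie in coding sequence of CNOT3 (GRCh38 chr19:54137749-54155681, plus strand), the first in exon 5 and the second in exon 8 of 18. They were placed by an exact match to the genome within the CNOT3 gene.
CNOT3 guide 1, chr19:54143665-54143684, plus strand: gagggaccaaatcaagacatGGG
CNOT3 guide 2, chr19:54145702-54145721, minus strand: tcttgcggatggcgtcaacgAGG
A conversion ratio is not an amount of RNA, so the CNOT3 row of the table does not check the knockout. The paper examined CNOT3 protein by western blot in HEK293T cells that received CNOT3-targeting or non-targeting guides.

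The 3′ UTRs of the adaptor mRNAs were searched on the mRNA strand for an AU-rich element, TTATTTATT, and for a Pumilio element, TGTANATA. The sites below are those of members that carry the element of their own family, the AU-rich sites of RC3H2, and 3 of the 4 Pumilio elements of BTG1, which has the highest number among the 9. Each is a window of 30 bases on GRCh38 from the GENCODE transcript, all on the minus strand, with the element in capitals.
ZFP36L1, chr14:68788076-68788105: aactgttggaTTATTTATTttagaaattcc
ZFP36L2, chr2:43223447-43223476: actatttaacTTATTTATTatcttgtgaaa
RC3H2, chr9:122849198-122849227: cttagttaacTTATTTATTtctattttatg
RC3H2, chr9:122847701-122847730: tgaagacattTTATTTATTtcactctgtaa
PUM2, chr2:20251142-20251171: gtttatagagaTGTATATAgaattatagtc
PUM2, chr2:20250882-20250911: tacagaaatatTGTATATActtacatatgt
BTG1, chr12:92142977-92143006: tgaagatgctcTGTATATAcatgtttaggt
BTG1, chr12:92142626-92142655: cacctgcaagaTGTACATAaaaatcacata
BTG1, chr12:92140551-92140580: atatatgggacTGTAAATAgagaaatctgt
The AU-rich element was present in 9.74% of the 3′ UTRs of 10721 tested genes with a coding transcript, and the Pumilio element in 31.0%. Among UTRs whose length was within 25% of that of BTG1 (3802 bases), 52.3% held a Pumilio element and 97.5% held fewer than 4. RC3H1 and RC3H2 held 2 Pumilio elements each in UTRs of 7637 and 5071 bases. Of UTRs of like length, 72.3% held a Pumilio element for RC3H1, 59.5% for RC3H2 and 44.3% for PUM2. The share with an AU-rich element was 22.2% for RC3H2, 8.56% for ZFP36L1 and 8.86% for ZFP36L2. TOB1, TOB2 and BTG3 held neither element in UTRs of 757, 2817 and 440 bases. These are letter matches and not shown binding sites.

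Median conversion over the genes tested was 32.7% to 35.9% in sgCNOT3 libraries and 32.0% to 35.9% in sgNT libraries at 0 h. At 12 h it was 8.54% and 9.84% in sgCNOT3 libraries, against 5.17% and 5.73% in sgNT libraries. Replicates correlated across genes at Spearman rho 0.34 in sgCNOT3 at 2 h and 0.53 in sgCNOT3 at 4 h, against 0.64 to 0.76 in the other 10 groups. The sgCNOT3 libraries at 2 h had medians of 29.1% and 18.7%. Of 6 genes listed for HEK293T cells, 5 were above 0 in all libraries and PAX2 in 7, while CD3E and MYH7, markers of T cells and muscle, were at 0 in all 24. Of 6 markers of other cell types, COL1A1 was above 0 in 22 libraries, ALB in 11, PECAM1 in 6 and PTPRC in 1. With the 4 libraries at 2 h left out, the same 2 members passed the slope test below.

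The first comparison asked whether the adaptor mRNAs decayed more slowly when CNOT3 was targeted. The slope of log2 conversion over the chase was compared between genotypes. A difference above 0, here termed slower, means that conversion declined more slowly in sgCNOT3 than in sgNT. BTG3 and ZFP36L1 were slower in sgCNOT3 cells and no member was faster. That is 2 of 9, against 21.7% of all 10731 genes that were slower and 0.345% that were faster, a share close to the background. All 9 differences were above 0, as were 81.7% of all genes. The members' median difference was 0.098 per h and that of all genes was 0.058. Centring each library on its own median took 0.066 off each slope difference, more than the median difference of all genes. After it, 7 of 9 members remained above 0, RC3H1 and RC3H2 turned negative, and none passed the threshold. The share of all genes above 0 after centring was not counted.

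**Figure D1:**
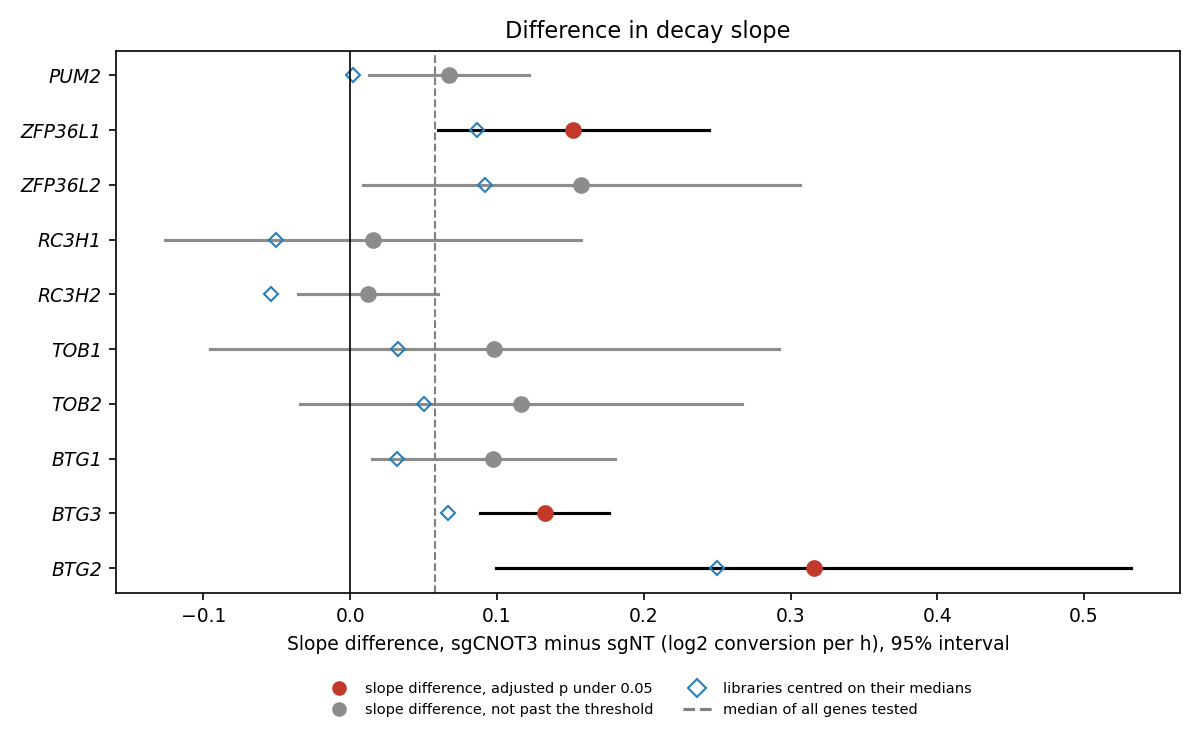
Difference in slope (sgCNOT3 minus sgNT, log2 conversion per h, horizontal axis) for the 9 adaptor mRNAs and the related BTG2, with 95% intervals. Red points (BTG3, ZFP36L1 and BTG2) passed the threshold, diamonds give the value after centring each library on its median, and the dashed line is the median of all genes tested, 0.058.

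BTG3, an antiproliferative TOB/BTG protein (ENSG00000154640.15, chr21:17593653-17612945), had the smallest standard error of the 9. Its conversion at 0 h was 42.6% and 39.3% in sgCNOT3 libraries, against 57.7% and 51.1% in sgNT libraries. At 2 h it was 43.7% and 49.2% in sgCNOT3 libraries, against 40.4% and 36.5% in sgNT libraries. The 12 h values were 7.35% and 7.02% in sgCNOT3 libraries, against 2.93% and 2.35% in sgNT libraries. The genotypes did not overlap at any of these times, and their order at 0 h was the reverse of that at 2 and 12 h. In between, 4 h values were 32.0% and 34.0% in sgCNOT3 libraries, against 25.4% and 26.5% in sgNT libraries. The slope was -0.23 per h in sgCNOT3 and -0.36 per h in sgNT, a difference of 0.13 ± 0.021 (SE; limma, adjusted p = 1.4e-04). The call was lost with libraries centred on their medians (0.067, limma adjusted p = 0.16), with 0 to 4 h only (0.20, limma adjusted p = 0.11) and without replicate 1 (0.13, limma adjusted p = 0.084).

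ZFP36L1 and ZFP36L2 encode TTP-like proteins that bind AU-rich elements and recruit CCR4-NOT through its scaffold. ZFP36L1 (ENSG00000185650.10, chr14:68787660-68796253) was at 33.0% and 23.1% in sgCNOT3 libraries at 0 h, against 34.6% and 29.6% in sgNT libraries. At 4 h it was at 25.1% and 27.6% in sgCNOT3 libraries, against 15% and 9.02% in sgNT libraries. The genotypes thus overlapped at 0 h and were apart at 4 h. At 8 h it was at 8.82% and 14.1% in sgCNOT3 libraries, against 1.55% and 3.41% in sgNT libraries. By 12 h the values were 3.18% and 5.05% in sgCNOT3 libraries, against 1.49% and 1.38% in sgNT libraries. Its slope difference was 0.15 ± 0.045 (SE; limma, adjusted p = 0.017), larger than that of 80.8% of the genes tested. The call was lost without replicate 1 (0.18, limma adjusted p = 0.085), without replicate 2 (0.12, limma adjusted p = 0.37), after centring (0.086, limma adjusted p = 0.25), with 0 to 4 h only (0.37, limma adjusted p = 0.14) and with 10 times the pseudocount (0.082, limma adjusted p = 0.13).

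ZFP36L2 (ENSG00000152518.8, chr2:43222402-43226606) was at 29.8% and 28.5% in sgCNOT3 libraries at 0 h, against 36.8% and 38.6% in sgNT libraries. At 8 h it was at 12.8% and 10.5% in sgCNOT3 libraries, against 6.12% and 1.10% in sgNT libraries. The genotypes were apart at both times, in opposite order. At 12 h it was at 0.668% and 0.269% in sgCNOT3 libraries and listed at 0 in both sgNT libraries. The slope difference was 0.16 ± 0.072 (SE; limma, adjusted p = 0.12), the largest estimate of the 9. After centring it was 0.092 (limma adjusted p = 0.41). With 10 times the pseudocount it was 0.061 (limma adjusted p = 0.35), and with 0 to 4 h only 0.023 (limma adjusted p = 0.96). It passed without sgCNOT3 12 h replicate 2 (0.22, limma adjusted p = 0.033), without sgNT 8 h replicate 1 (0.19, limma adjusted p = 0.042) and with a pseudocount 10 times smaller (0.34, limma adjusted p = 0.025). An antisense transcript overlaps its 3′ UTR in the annotation, and the sources do not state whether strand was used in counting.

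PUM2 (ENSG00000055917.17, chr2:20248691-20352234) encodes a Pumilio protein that recruits CCR4-NOT to Pumilio elements. It was at 62.4% and 44.3% in sgCNOT3 libraries at 0 h, against 52.1% and 45.1% in sgNT libraries. At 4 h it was at 18.2% and 13.8% in sgCNOT3 libraries, against 23.4% and 18.8% in sgNT libraries, so that both sgCNOT3 values were the lower. At 12 h it was at 4.98% and 4.56% in sgCNOT3 libraries, against 1.82% and 2.68% in sgNT libraries, so that both were the higher. The slope difference was 0.068 ± 0.026 (SE; limma, adjusted p = 0.069), close to the median of all genes. With 0 to 8 h only it was -0.016 and with 0 to 4 h only -0.12, so that its direction rested on the 12 h libraries. After centring the slope difference was well under its SE of 0.026 and did not pass (limma adjusted p = 0.97). With 10 times the pseudocount it was 0.035 (limma adjusted p = 0.34). Leaving out libraries moved the slope difference of PUM2 between 0.044, without sgNT 12 h replicate 1, and 0.077. It passed without sgCNOT3 0 h replicate 1 (0.077, limma adjusted p = 0.044), sgCNOT3 4 h replicate 2 (0.066, limma adjusted p = 0.042), sgNT 0 h replicate 2 (0.075, limma adjusted p = 0.048) or sgNT 8 h replicate 1 (0.074, limma adjusted p = 0.045).

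BTG1 (ENSG00000133639.6, chr12:92140278-92145846), an antiproliferative protein of the TOB/BTG group, differed most in the middle of the chase. At 0 h it was at 45.8% and 41.5% in sgCNOT3 libraries, against 53.2% and 44% in sgNT libraries. At 4 h it was at 24.7% and 27.3% in sgCNOT3 libraries, against 12.3% and 6.09% in sgNT libraries. At 8 h it was at 5.68% and 10.5% in sgCNOT3 libraries, against 2.49% and 3.26% in sgNT libraries. The genotypes overlapped at 0 h and were apart at 4 and 8 h. By 12 h it was at 1.24% and 1.99% in sgCNOT3 libraries, against 0.530% and 0.996% in sgNT libraries, among the lowest of the 9 in both. The slope difference was 0.098 ± 0.040 (SE; limma, adjusted p = 0.084). After centring it was 0.032 and did not pass. It passed without sgCNOT3 12 h replicate 1 (0.13, limma adjusted p = 0.027), sgNT 4 h replicate 2 (0.10, limma adjusted p = 0.038) or sgNT 12 h replicate 2 (0.13, limma adjusted p = 0.042), with 0 to 8 h only (0.21, limma adjusted p = 0.017) and with a pseudocount 10 times smaller (0.12, limma adjusted p = 0.048). The non-coding gene LINC01619 overlaps its 3′ UTR on the same strand, and the reads of both cannot be separated here.

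TOB1 and TOB2 link the nuclease subunits of CCR4-NOT to poly(A)-binding protein. TOB1 (ENSG00000141232.5, chr17:50862223-50867978) was at 78.6% and 68.8% in sgCNOT3 libraries at 0 h, against 47.6% and 66.7% in sgNT libraries. At 4 h it was at 6.67% and 14.9% in sgCNOT3 libraries, against 31.4% and 14% in sgNT libraries, with a range wider in sgNT than in sgCNOT3. The last values were 0% and 2.50% in sgCNOT3 libraries, against 0% and 0.617% in sgNT libraries. The genotypes overlapped at 4 and 12 h. The slope difference was 0.098 with a 95% interval of -0.095 to 0.29, and did not pass (limma adjusted p = 0.48).

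TOB2 (ENSG00000183864.5, chr22:41433494-41446801) began lower than any other member. It was at 18.8% and 15.9% in sgCNOT3 libraries at 0 h, against 21.3% and 21.8% in sgNT libraries. Its 2 h values were 33.3% and 6.91% in sgCNOT3 libraries, against 11.5% and 4.76% in sgNT libraries, so replicates of 1 group differed more than the genotypes did. At 12 h it was at 2.11% and 1.19% in sgCNOT3 libraries, against 0.455% and 0.571% in sgNT libraries. Its slope difference was 0.12 (95% interval -0.034 to 0.27; limma, adjusted p = 0.27). TOB2, BTG1 and BTG3 each have a processed pseudogene in the annotation, and how reads shared with it were assigned is not given in the sources used here.

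RC3H1 and RC3H2 encode Roquin proteins, which bind stem-loops in 3′ UTRs and contact CCR4-NOT. RC3H2 (ENSG00000056586.16, chr9:122844556-122905359) had log2 differences between genotypes of -0.24 to 0.14 over the 6 times. At 0 h it was at 44.9% and 33.2% in sgCNOT3 libraries, against 40.6% and 35.5% in sgNT libraries. At 4 h it was at 20.6% and 20.4% in sgCNOT3 libraries, against 21.8% and 17.1% in sgNT libraries. Its 12 h values were 3.49% and 5.84% in sgCNOT3 libraries, against 3.38% and 4.88% in sgNT libraries. The genotypes overlapped at each of these times. Its slope difference was 0.012, and the 95% interval of -0.035 to 0.060 just includes the median of all genes (limma, adjusted p = 0.75).

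RC3H1 (ENSG00000135870.12, chr1:173931084-174022357) had its widest spread between replicates at 0 and 4 h in sgCNOT3. At 0 h it was at 83.7% and 59.3% in sgCNOT3 libraries, against 43.1% and 40.5% in sgNT libraries. At 4 h it was at 26.4% and 4.26% in sgCNOT3 libraries, against 26.8% and 21.9% in sgNT libraries. At 12 h the values were 6.04% and 10.8% in sgCNOT3 libraries, against 7.23% and 3.73% in sgNT libraries. The genotypes were apart at 0 h, where both sgCNOT3 libraries were the higher, and overlapped at 12 h. The slope difference was 0.015 with a 95% interval of -0.13 to 0.16 (limma, adjusted p = 0.90), an interval that holds both 0 and the value of BTG3. The low 4 h value came from sgCNOT3 4 h replicate 2, a library of 1 of the groups with the lower replicate correlations. Leaving out libraries moved the slope difference of RC3H1 between -0.059 and 0.090.

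**Figure D2:**
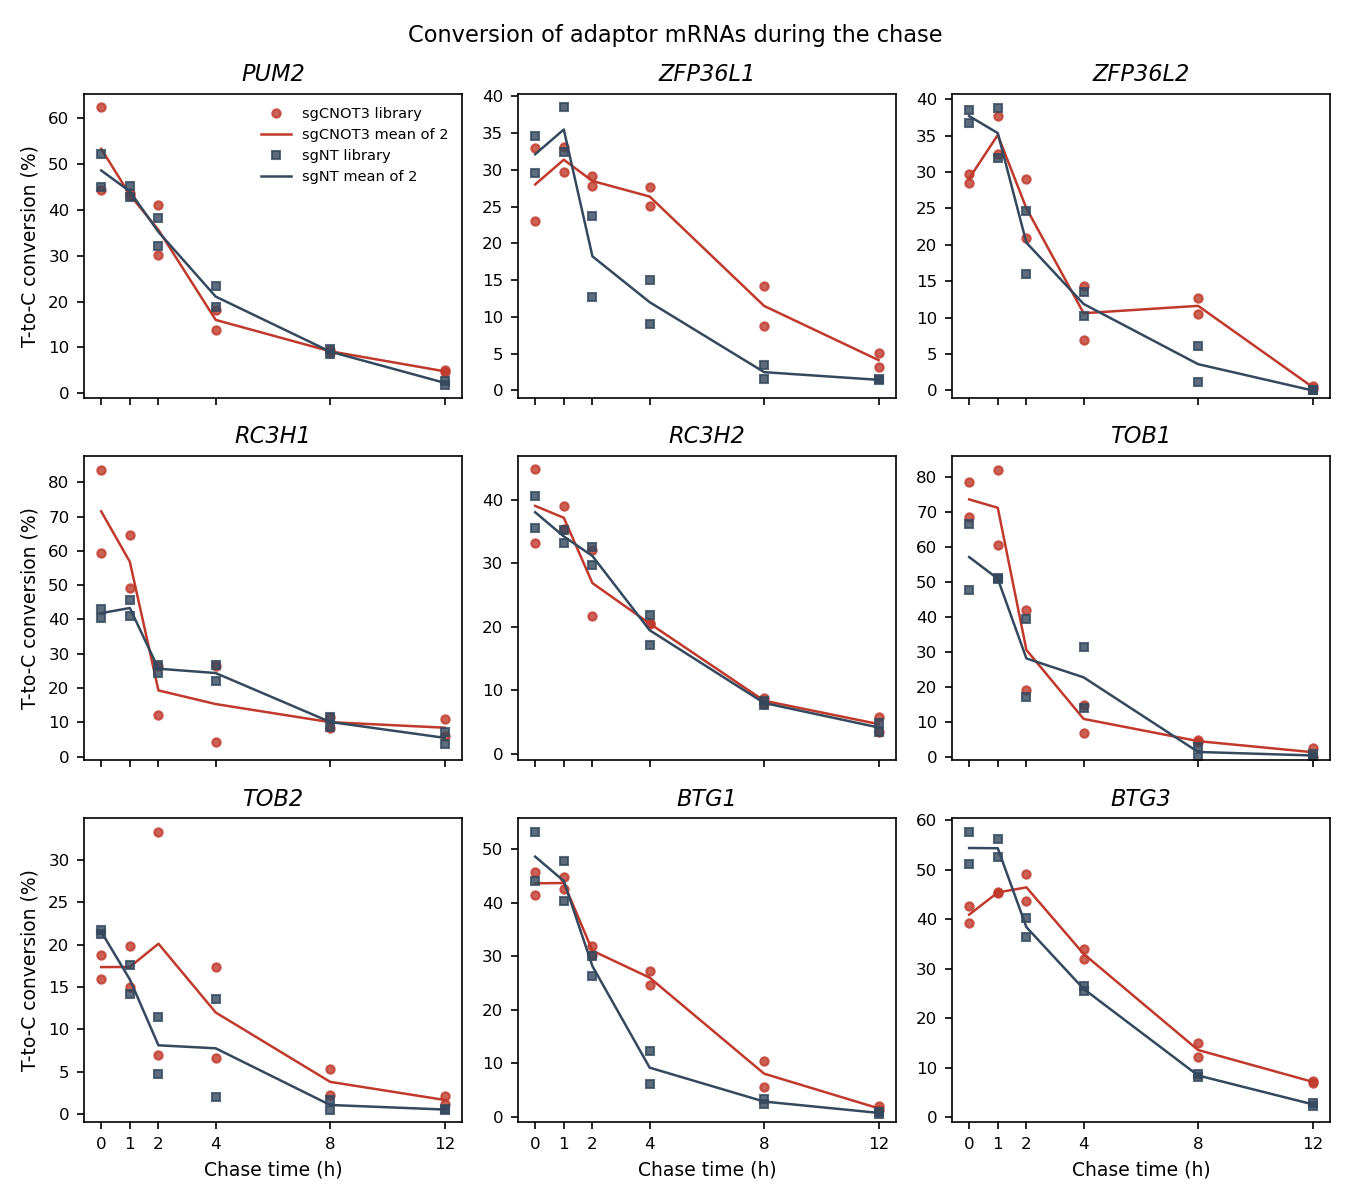
T-to-C conversion (percent, vertical axis, scaled separately per gene) against chase time (h) for the 9 adaptor mRNAs, with each library as a point and the mean of the 2 libraries as a line. Red sgCNOT3 points lie above blue sgNT points at 4 and 8 h for ZFP36L1, BTG1 and BTG3 (17.8% of all genes did so at 4 h and 51.8% at 8 h), while both genotypes run together for RC3H2.

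The comparison was then made at each chase time separately, with the 24 libraries sharing 1 estimate of spread. At 0 h no member passed in either direction, against 0.811% of genes higher and 4.09% lower in sgCNOT3 (limma). The closest was BTG3, lower in sgCNOT3 by a log2 difference of -0.41 ± 0.13 (SE; limma, adjusted p = 0.11). At 0 h both sgCNOT3 libraries were above both sgNT libraries for 2 members, RC3H1 and TOB1, against 29.1% of genes. They were below for 3 members, ZFP36L2, TOB2 and BTG3, against 25.9% of genes. Both shares are near the background.

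No member passed at 1 or 2 h. At 1 h both sgCNOT3 libraries were above both sgNT libraries for RC3H1, RC3H2 and TOB1, against 31.3% of all genes, and below for BTG3, against 22.8%. The background at 1 h was 0.923% of genes higher and 2.45% lower, and at 2 h it was 1.55% higher and 2.48% lower. At 4 h BTG1 was higher in sgCNOT3 by 1.54 ± 0.35 on the log2 scale (SE; limma, adjusted p = 0.016), the only member of 9 to pass, against 2.14% of all genes. None was lower at 4 h, against 5.34% of all genes. At 4 h both sgCNOT3 libraries were above both sgNT libraries for 3 of 9 members, ZFP36L1, BTG1 and BTG3, against 17.8% of all genes, and below for PUM2, against 32.4%. At 2 h they were above for 3 of 9, against 20.4%, and below for none, against 18.5%. At 8 h 4 of 9 were higher, against 18.9% of all genes, and none was lower, against 1.98%. These were ZFP36L1 (2.11 ± 0.39, limma adjusted p = 0.0022), ZFP36L2 (1.96 ± 0.55, limma adjusted p = 0.022), BTG1 (1.34 ± 0.35, limma adjusted p = 0.016) and BTG3 (0.66 ± 0.13, limma adjusted p = 0.0034). Both sgCNOT3 libraries were above both sgNT libraries at 8 h for 6 of 9 members, against 51.8% of all genes, and below for none, against 9.01%. Library medians over the genes tested at 8 h were 16.5% and 15.6% in sgCNOT3, against 10.3% and 11.9% in sgNT. The calls at 1, 2, 4 and 8 h come from the main model only. They were not repeated with centring, other pseudocounts or libraries left out.

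At 12 h 3 of 9 members were higher in sgCNOT3, against 31.8% of all genes, and none was lower, against 2.73% of all genes. BTG3 was higher by 1.34 ± 0.13 (SE; limma, adjusted p = 6.3e-06), ZFP36L1 by 1.30 ± 0.39 (limma adjusted p = 0.020) and PUM2 by 1.00 ± 0.22 (limma adjusted p = 0.0038). Both sgCNOT3 libraries were above both sgNT libraries for 6 of 9 members, against 51.9% of all genes, and below for none, against 8.28%. After centring, which took 0.72 off the 12 h differences, 7 of 9 were above 0 and none passed. The median 12 h difference of all genes before centring was 0.65, and their share above 0 after it was not counted. The call on ZFP36L1 was lost without sgCNOT3 12 h replicate 2 (0.99, limma adjusted p = 0.15), sgNT 12 h replicate 1 (1.34, limma adjusted p = 0.052) or sgNT 12 h replicate 2 (1.25, limma adjusted p = 0.074). At 4, 8 and 12 h the counts for the members are 1, 4 and 3 of 9, and the members counted at each time are not the same set.

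**Figure D3:**
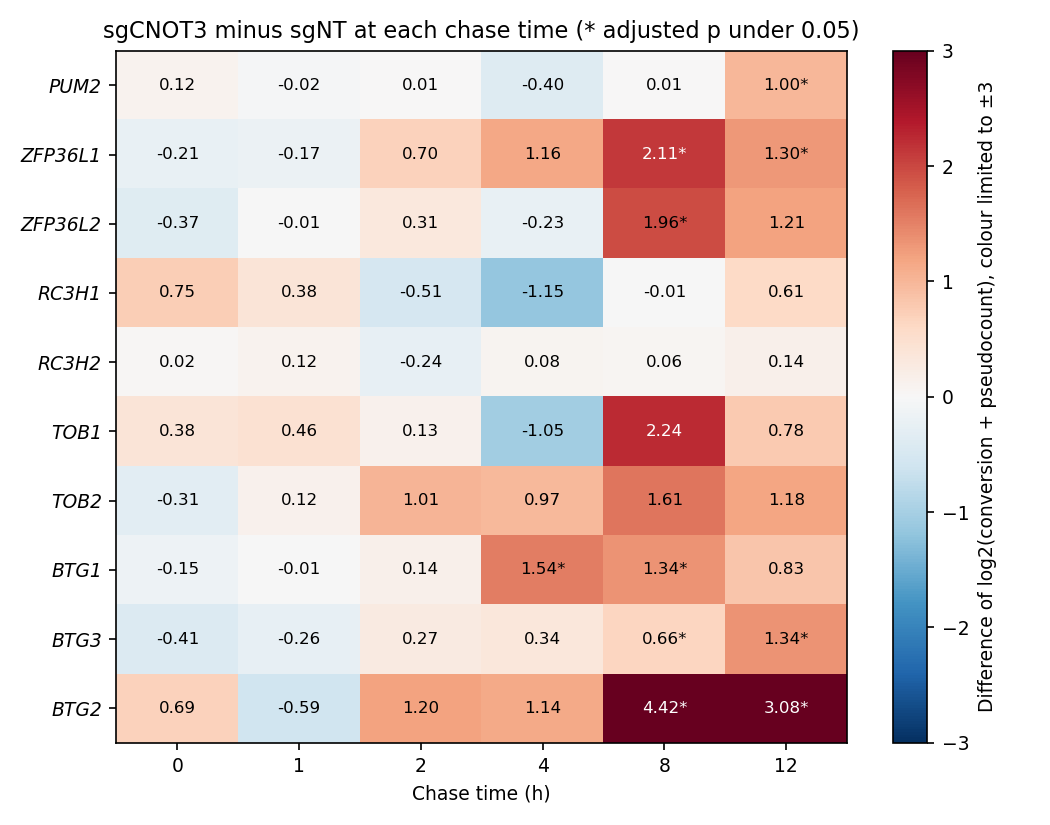
Difference of log2(conversion + pseudocount) between sgCNOT3 and sgNT (colour, limited to ±3) at each chase time (h, columns) for the 9 adaptor mRNAs and BTG2 (rows); an asterisk marks an adjusted p under 0.05. The cell of BTG3 is -0.41 at 0 h and 1.34 at 12 h, and no cell carries an asterisk before 4 h.

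The change of the genotype difference between 0 and 12 h was tested in the same model. This test was not repeated with centring, other pseudocounts or libraries left out. BTG3 passed, with a 12 h difference that exceeded its 0 h difference by 1.75 ± 0.18 (SE; limma, adjusted p = 2.9e-05), as did 17.4% of all genes, while no member passed in the other direction, against 0.615% of all genes. PUM2 (0.88 ± 0.32, limma adjusted p = 0.071) and ZFP36L1 (1.51 ± 0.55, limma adjusted p = 0.077) did not pass.

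The adaptor mRNAs kept less of their label than the median gene in both genotypes. The conversion remaining at 12 h, as a share of that at 0 h, was below the all-gene median for all 9 members in both genotypes. The medians of all genes were 29.8% in sgCNOT3 and 17.8% in sgNT. The highest share among the members was that of BTG3 in sgCNOT3, 17.5%, against 4.86% in sgNT. RC3H1 kept 11.8% in sgCNOT3 and 13.1% in sgNT, the highest share in sgNT. The lowest shares were those of ZFP36L2, at 1.61% in sgCNOT3 and 0% in sgNT, TOB1, at 1.70% in sgCNOT3 and 0.540% in sgNT, and BTG1, at 3.70% in sgCNOT3 and 1.57% in sgNT.

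Half-lives were fitted as a single exponential, after scaling each genotype to its own average at the start of the chase. Fits were kept for 8 members and for 7728 genes in all. The median half-life of the 8 was 4.09 h in sgCNOT3 and 3.28 h in sgNT, against 7.50 h in sgCNOT3 and 5.80 h in sgNT for all genes. The members' median log2 ratio was 0.39, with 4 of 8 above 0, and that of all genes was 0.19, with 60.3% above 0. Without sgCNOT3 2 h replicate 1 the members' median was 0.74, and without the 2 h chase time it was 0.67.

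The fitted half-life was longer in sgCNOT3 for 4 of the 8 members with a kept fit, and shorter for the other 4. ZFP36L1 was fitted at 7.85 h in sgCNOT3 and 3.03 h in sgNT, with log2 ratios of 1.01 and 1.96 in the separate fits of replicates 1 and 2. BTG3 was fitted at 7.24 h in sgCNOT3 and 3.67 h in sgNT, with ratios of 0.99 and 0.97 by replicate number. ZFP36L2 was fitted at 4.63 h in sgCNOT3 and 2.59 h in sgNT, and BTG1 at 4.11 h in sgCNOT3 and 2.30 h in sgNT. These 4 are also the members that passed at 8 h, in the same libraries, and their ratios had the same sign in both replicate numbers. A free start value and a log-linear fit both gave the 4 smaller ratios, still above 0. Log-linear ratios were 0.72 for ZFP36L1, 0.66 for BTG3, 0.48 for ZFP36L2 and 0.33 for BTG1. In sgCNOT3, ZFP36L1 was at 6.07 h with a free start value and 4.25 h in the log-linear fit. BTG3 was at 5.54 and 4.35 h in the same order. Fits to 0 to 4 h only gave larger ratios for ZFP36L1 (2.84), BTG3 (2.48) and BTG1.

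RC3H2 was fitted at 4.06 h in sgCNOT3 and 4.21 h in sgNT, and its ratio took opposite signs in the replicate numbers, -0.19 and 0.15. TOB1 was fitted at 1.99 h in sgCNOT3 and 2.51 h in sgNT, also with opposite signs, -0.87 and 0.20. PUM2 was fitted at 2.90 h in sgCNOT3 and 3.54 h in sgNT, a log2 ratio of -0.29, while its log-linear fit gave 0.31. By replicate number PUM2 was below 0 in both, at -0.44 and -0.092. RC3H1 was also below 0 in both replicate numbers, at -1.20 and -1.59. It had the lowest ratio, -1.37, with 1.67 h in sgCNOT3 and 4.33 h in sgNT. Leaving out libraries moved that ratio between -1.68 and -0.97. A log-linear fit gave it a ratio of 0.091, with 4.23 h in sgCNOT3 and 3.97 h in sgNT, and a free start value gave -1.31. The log-linear fit also gave ratios above 0 for RC3H2 (0.065) and TOB1 (0.25), and so for all 8 members with a kept fit. The direction for RC3H1, RC3H2, TOB1 and PUM2 thus changed with the form of the fit. The log-linear fit uses the same log values as the slope comparison. Its signs therefore repeat those of the slope differences, which were above 0 for 81.7% of all genes, and are not a second check. The ratio of PUM2 was also 0.094 without sgCNOT3 0 h replicate 1. TOB2 was left out because the residual standard error of its sgCNOT3 fit was 0.41, above the limit of 0.3.

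**Figure D4:**
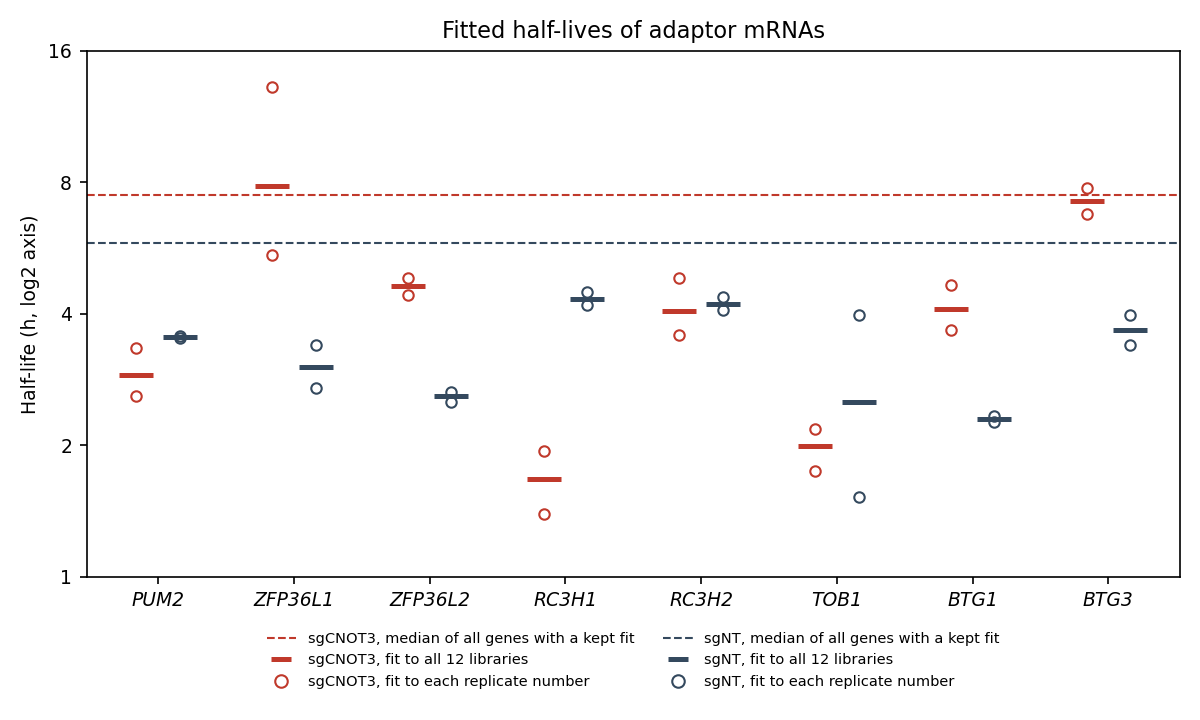
Fitted half-lives (h, log2 axis) of the 8 adaptor mRNAs with a kept fit, in sgCNOT3 (red, left of each pair) and sgNT (blue), with bars for the fit to all 12 libraries of a genotype and circles for the fit to each replicate number. Dashed lines are the medians of all genes, 7.50 h in sgCNOT3 and 5.80 h in sgNT, and only ZFP36L1 in sgCNOT3 has its bar above the line of its genotype. That half-life of ZFP36L1 was lower with a free start value and in a log-linear fit, for which no all-gene median is given.

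In sgNT cells TOB2, left out above because of its sgCNOT3 fit, had a half-life of 2.01 h. Half-lives of the 8 members with a kept fit ran from 2.30 h for BTG1 to 4.33 h for RC3H1. Neighbours in this order were often closer than the fits of single replicate numbers. RC3H1 was fitted at 4.48 and 4.18 h by replicate number and RC3H2 at 4.08 and 4.37 h, which overlap. TOB1, at 3.98 and 1.52 h by replicate number, overlapped with every member but RC3H1 and RC3H2. BTG1, at 2.33 and 2.26 h, and ZFP36L2, at 2.51 and 2.65 h, did not overlap with each other or with ZFP36L1, at 2.71 and 3.40 h.

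The study's question concerned the arginine codons CGG, CGA and AGG, so their share was counted in each member's coding sequence. The median share over the 10721 coding genes was 2.85%. BTG1 (2.92%), RC3H1 (3.18%) and BTG3 (3.17%) were above it. TOB1 was the lowest at 0.580%, with 1.36% of genes below it, and TOB2 was at 1.45%. The 2 slower members lay on both sides of the median, BTG3 above and ZFP36L1 below at 2.07%. AU-rich ATTTA pentamers, present in 74.9% of all 3′ UTRs, occurred in all 9, with 25 in RC3H2 (more than in 97.0% of UTRs of like length) and 3 in TOB2 (more than in 19.9%).

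Close relatives that are not members were looked at by name. BTG2, an antiproliferative protein of the TOB/BTG group, was slower in sgCNOT3, with 0.32 ± 0.10 (SE; limma, adjusted p = 0.033), but that call was lost in 13 of 35 alternatives, among them the fits without sgCNOT3 8 h replicate 1 or 2, sgCNOT3 12 h replicate 1, sgNT 0 h replicate 1, sgNT 1 h replicate 1 or 2, or sgNT 12 h replicate 2 (0.29 to 0.33, limma adjusted p = 0.051 to 0.062). With 10 times the pseudocount it was at 0.10 (limma adjusted p = 0.39). Its conversion at 0 h was 38.4% and 34.4% in sgCNOT3 libraries, against 60.3% and 8.20% in sgNT libraries. ZFP36, the founding TTP protein, was above 0 in 11 of 24 libraries and BTG4 in 0, and neither was tested.

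Other proteins known to bring CCR4-NOT to mRNAs, in humans or in other animals, were listed as 16 genes, of which 11 were tested. Of these, 3 were slower in sgCNOT3 (YTHDF2, TNRC6A and CPEB4) and 0 were faster, again against 21.7% and 0.345% of all genes. None of the 3 passed after centring (YTHDF2 0.12, limma adjusted p = 0.078; TNRC6A 0.11, limma adjusted p = 0.078; CPEB4 0.068, limma adjusted p = 0.26). YTHDF2, a reader of m6A, differed by 0.18 ± 0.035 (SE; limma, adjusted p = 6.8e-04) and TNRC6A, a microRNA silencing protein, by 0.17 ± 0.035 (limma adjusted p = 0.0011). CPEB4, which reads cytoplasmic polyadenylation elements, differed by 0.13 ± 0.045 (limma adjusted p = 0.035), and lost its call in 12 of 36 alternatives. Among these were the fits without sgCNOT3 0 h, 8 h or 12 h replicate 2, sgNT 1 h replicate 1 or 2, or sgNT 12 h replicate 2 (0.080 to 0.13, limma adjusted p = 0.052 to 0.20). It was at 0.052 with 0 to 8 h only (limma adjusted p = 0.72) and at 0.048 without replicate 2 (limma adjusted p = 0.50). Without replicate 1, with 12 libraries left, YTHDF2 was at 0.20 (limma adjusted p = 0.064) and TNRC6A at 0.13 (limma adjusted p = 0.13), and without replicate 2 YTHDF2 was at 0.17 (limma adjusted p = 0.082). The highest value was that of CPEB1, 0.19 (limma adjusted p = 0.36), and the lowest that of NANOS1, -0.17 (limma adjusted p = 0.57).

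Of 10 listed subunits of CCR4-NOT, all tested, CNOT2, CNOT8 and CNOT9 were slower, against 21.7% of all genes, and none was faster, against 0.345%. CNOT2, which pairs with CNOT3 in the NOT module, differed by 0.22 ± 0.026 (SE; limma, adjusted p = 6.2e-06). CNOT9 differed by 0.067 ± 0.021 (limma adjusted p = 0.029), and lost its call without sgCNOT3 0 h replicate 2 (0.062, limma adjusted p = 0.054), sgNT 12 h replicate 1 (0.044, limma adjusted p = 0.15) or sgNT 12 h replicate 2 (0.058, limma adjusted p = 0.099), and without the 2 h time (0.064, limma adjusted p = 0.058). It was at 8.3e-04 after centring (limma adjusted p = 0.98) and at 0.029 with 0 to 8 h only (limma adjusted p = 0.49). CNOT8 differed by 0.11 ± 0.018 (limma adjusted p = 1.9e-04), but did not pass after centring (0.042, limma adjusted p = 0.30), without replicate 1 (0.10, limma adjusted p = 0.056) or without replicate 2 (0.11, limma adjusted p = 0.058). The lowest was CNOT6 at -0.016 (limma adjusted p = 0.68), which was faster after centring (-0.082, limma adjusted p = 0.010).

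Likeness of the courses was measured as Pearson's r of log2 conversion, centred on the library median, over the 24 libraries, which all genes share. Given as a description, the adaptor pairs most alike were ZFP36L1 with BTG1 and BTG1 with BTG3, each at 0.86. RC3H1 was least like the others, with r of -0.018 with ZFP36L1 and at most 0.40 with PUM2. It reached 0.28 with RC3H2, the other Roquin gene. ZFP36L1 and ZFP36L2 were at 0.65, and TOB1 and TOB2 at 0.56. Over all other genes tested, the closest to each member were HAUS6 for PUM2 (0.94), SESN2 for ZFP36L1 (0.92), KLHL21 for ZFP36L2 (0.95), ATP2B1 for RC3H1 (0.89) and NUP35 for RC3H2 (0.93). For the TOB/BTG mRNAs they were ZNF322 for TOB1 (0.92), TENT5A for TOB2 (0.86), ZNF503 for BTG1 (0.96) and NET1 for BTG3 (0.96).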

How the data were processed

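Conversion was measured by SLAM-seq in 24 HEK293T libraries, grouped by the genotype and chase time in the sample titles. The deposited table gives T-to-C conversion as a fraction between 0 and 1 for every gene in every library, which the authors computed from iodoacetamide-treated 3′ end libraries. The submitters' processing notes name GRCh38 and bcl2fastq. What is not given in the sources used here is the aligner, the conversion caller, the strand setting, the annotation, and whether the ratio counts reads or T positions. Read counts were not part of the table. The depth behind a value is therefore unknown, no counting interval or floor is given, and a 0 can mean no converted read or no read.

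The members and gene lists were chosen with earlier results of these data known, and the lists of relatives, other adaptors and subunits support nothing on their own. The text names all members, their relatives, the members of the other lists past the threshold of the slope test or at its extremes, and the 1 gene most like each member, except that a relative and a sequence site are not reported here.

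Of 19798 genes, 10731 were kept. These had values above 0 in each of the 4 libraries taken at 0 h and in 20 or more of the 24. Slopes were fitted with limma 3.58.1 (R 4.3.3, trend option) to log2(conversion + 0.340 percentage points), with genotype, time and their interaction. The pseudocount is 1% of the median at 0 h, and differences on this scale understate changes of low values. Contrasts per time used a limma fit of the 12 group means. Tests were two-sided, with Benjamini-Hochberg adjustment across the 10731 genes and a threshold of 0.05. The models were tested on simulated data. Half-lives above 24 h were set to 24 h, and a fit was dropped when its residual standard error exceeded 0.3. Transcripts came from GENCODE release 44 on GRCh38, guides from the study's supplementary table. Alternatives were other pseudocounts, filters, chase times, centring, variance moderation and fits, a replicate block, and leaving out libraries. Other steps ran in Python 3.11.15 with pandas 2.3.3, scipy 1.17.1, numpy 2.4.6 and, for plots, matplotlib 3.10.9.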

Additional observations from a re-analysis of the deposited data

Results flagged for a closer look

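The genotype difference at 12 h departed from that at 0 h, by the test of the difference itself in limma, for 7 of the listed genes. They were 1 of 9 adaptor mRNAs, 2 of 11 other adaptors and 4 of 10 CCR4-NOT subunits, and BTG2 did not pass. Of all genes, 17.4% passed the threshold in this direction. Among the adaptors the change was 1.75 on the log2 scale for BTG3, 2.06 for YTHDF2 and 1.86 for TNRC6A. Among the CCR4-NOT subunits it was 2.52 for CNOT2, 1.32 for CNOT8, 0.76 for CNOT9 and 0.71 for CNOT11. These changes come from the main model only and include the shift shared by all genes. Centring took 0.72 off each 12 h difference and 0.015 off each 0 h difference. The changes of CNOT9 and CNOT11 were close in size to that shift. For BTG3 the log2 difference of sgCNOT3 from sgNT started at -0.41 and ended the chase at 1.34. For YTHDF2 it started at -1.56 and ended at 0.49, and for TNRC6A it started at -0.55 and ended at 1.31. Of these 0 h differences, that of YTHDF2 passed the threshold.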

How the results depend on the processing

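The count of slower members, 2, was 1 with 10 times the pseudocount, 4 with a pseudocount 10 times smaller, and 0 after centring libraries or with 0 to 4 h only. Leaving out libraries gave 0 to 4. The count of slower genes was 586 after centring, 1244 with 0 to 8 h and 91 with 0 to 4 h, and 426 to 2545 without libraries. The count of faster genes was 20 with 10 times the pseudocount, 654 after centring, 24 with 0 to 8 h, 24 without the 2 h time, and 1 to 49 without libraries. At 0 h, 103 genes were called after centring and 181 to 579 without libraries. At 12 h, 2343 genes were called with 10 times the pseudocount and 2530 to 3867 without libraries. Members higher at 12 h, 3 in the model as reported, were 1 with 10 times the pseudocount, 5 with the smaller one and 0 after centring, and 2 to 4 without libraries. The members' median half-life ratio was 0.84 with no limit on residuals, 0.67 without the 2 h time, and 0.20 to 0.74 without libraries.

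Slope differences turned sign for PUM2 (-0.016 with 0 to 8 h, -0.12 with 0 to 4 h), RC3H1 (-0.050 after centring, -0.093 with 0 to 8 h, -0.49 with 0 to 4 h, -0.059 to 0.090 without libraries), RC3H2 (-0.054 after centring, -0.010 to 0.030 without libraries), and, with 0 to 4 h, TOB1 (-0.38) and CNOT9 (-0.022). Without libraries NANOS1 ran from -0.48 to 0.14 and CNOT6 from -0.049 to 0.017. The 0 h differences without libraries ran from -0.13 to 0.36 for PUM2, from -0.47 to 0.041 for ZFP36L1 and from -0.19 to 0.24 for RC3H2. The 12 h differences after centring were -0.11 for RC3H1 and -0.58 for RC3H2, and without libraries they ran from -0.25 to 1.46 for RC3H1, from -0.20 to 0.49 for RC3H2 and from -0.75 to 2.32 for TOB1. The cause was not tested. None of these values had passed the threshold, other than the slope of CNOT9.

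Little pairing by replicate number was seen, as deviations of same-numbered libraries correlated at -0.055 to 0.22 over 66 pairs of groups, with 2 above 0.1. Whether same-numbered libraries shared a guide or a dish cannot be told from this. With the replicate number as a block, 2325 genes were slower and 33 faster, 2 members were slower, and no member's slope call changed.

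Leaving out the 2 h time and the free start value were added after seeing the data. Without replicate 1 or 2, single time points have no residual degrees of freedom and gave values with no count. Where 1 library was left out, the remaining one was assumed to vary like the other groups. Depth is unknown, so low values such as those of TOB1 at 12 h cannot be given a counting error.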
